A study of Mus musculus with 16 samples.

Results

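The genes described here encode enzymes and regulators of branched-chain amino acid (BCAA) degradation. They are the 10 of 41079 genes in the deposited count table whose symbols are Bcat2, Bckdha, Bckdhb, Dbt, Bckdk, Ppm1k, Ivd, Mccc1, Mccc2 and Hibadh. Liver RNA came from 16 C57BL/6J mice aged 20 to 22 months, with 4 animals in each of 4 groups: male CRE-, male LKO, female CRE- and female LKO. All mice carried Gcgr alleles, the gene of the glucagon receptor, with LoxP sites around part of the exons. LKO mice also carried Albumin-Cre, which is active in hepatocytes from development onwards and deletes the floxed part in these cells; CRE- controls carried the floxed alleles without Cre. The question put to the data was whether transcripts of BCAA degradation differed between LKO mice and their sex-matched controls at this age, and whether that difference was the same in both sexes.

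Leucine, isoleucine and valine are degraded in mitochondria by a shared start and separate ends. A transaminase removes the amino group, the branched-chain keto acid dehydrogenase (BCKDH) complex then removes carbon dioxide irreversibly and ties the remainder to coenzyme A, and dedicated enzymes carry each acyl-CoA towards acetyl-CoA, acetoacetate or propionyl-CoA. A kinase phosphorylates and inactivates the BCKDH complex and a phosphatase reactivates it. The liver is known for low transaminase and high BCKDH activity, so hepatocytes mainly oxidize keto acids that muscle and other tissues release.

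Between 33268424 and 56488920 reads per library had been counted on genes, and the group medians were 44288170 in male CRE-, 38475729.5 in male LKO, 46840916 in female CRE- and 37348750.5 in female LKO mice. Levels are given as CPM, read counts relative to the library total after scaling the libraries by TMM (a trimmed mean over genes), or as RPKM, the same value per kilobase of exon, where genes are compared with each other. Of the genes in the table, 16742 passed the filter on low counts, among them each of the 10 members, which had between 395 (Bckdk) and 21575 reads (Hibadh) in a library. A gene is said to have risen or fallen where its adjusted p was under 0.05 in the quasi-likelihood test of edgeR, with Benjamini-Hochberg adjustment over the 16742 genes.

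Gcgr itself was at 190.4, 193, 127 and 189.6 CPM in male CRE- replicates 1 to 4 and at 117, 136, 129.9 and 160.4 CPM in male LKO replicates 1 to 4. In females it was at 162, 208, 201 and 180.0 CPM in CRE- replicates 1 to 4 and at 48.8, 132, 119 and 93.6 CPM in LKO replicates 1 to 4. Male LKO and CRE- values overlapped through male CRE- replicate 3, and each female LKO value was below each female CRE- value. In females the log2 fold change of Gcgr was -0.93 (adjusted p = 0.0443 in the quasi-likelihood test of edgeR, Benjamini-Hochberg adjustment). With single libraries left out it was past the threshold in 3 of 16 fits, with adjusted p from 0.0225 to 0.136 in edgeR. Of 8 other planned fits it passed in 4. The table counts reads over the whole gene and not per exon, so the source of the reads that remained in LKO mice was not tested. Xist was at 137 CPM or more in each female library and at 0.243 CPM or less in each male library, while Ddx3y was at 38.5 CPM or more in male and at 0 in female libraries.

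A few libraries stood apart from their groups before any comparison was made. Female LKO replicate 1 had the lowest mean Pearson r of log2 CPM with its group, 0.923, beside 0.936, 0.945 and 0.950 for female LKO replicates 4, 2 and 3. It was the lowest of its group in 7 of the 10 members. Male CRE- replicate 3, with a mean r of 0.942 against 0.958 to 0.963 for the other male controls, was also the lowest of its group in 7 members. In the other groups male LKO replicate 1 was the lowest of its group in 9, and female CRE- replicate 1 in 8. Results that turned on female LKO replicate 1 are given with and without it.

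A few cell markers rose in female LKO mice, among them 1 of 8 macrophage, 1 of 5 neutrophil and 4 of 5 proliferation genes. Over all genes, 350 of 16742 rose in females by edgeR's test. The 6 hepatocyte markers tested (led by Alb, mean 70689 CPM) summed to 111846, 109553, 114395 and 127956 CPM in female CRE- replicates 1 to 4 and to 52717, 89846, 85953 and 67126 CPM in female LKO replicates 1 to 4. All 4 LKO sums were below all 4 control sums, yet 0 of the 6 genes passed edgeR's test. Of these hepatocyte markers, 6 of 6 had a log2 fold change below zero in females (median -0.48), beside 7849 of 16742 genes. At an unadjusted p under 0.05 in edgeR, 2 of 6 were lower, beside 1530 of 16742 genes. Alb makes up most of these sums, and it was the 1 of 6 genes whose LKO values all lay below its control values; Ttr, Apoa1, Apob, Hnf4a and Cps1 overlapped. The 8 macrophage markers (led by Clec4f, mean 245 CPM) summed to 688, 511, 555 and 1099.5 CPM in female CRE- and to 3154, 815, 1980.1 and 1293 CPM in female LKO replicates 1 to 4, highest in the library with the lowest hepatocyte sum. In females 8 of 8 had a log2 fold change above zero (median 1.39), beside 8891 of 16742 genes. At an unadjusted p under 0.05, 6 of 8 were higher, beside 2054 of 16742 genes. Of these 8, Adgre1 rose in females (log2 fold change 2.15, SE 0.57, adjusted p = 0.0451 in the quasi-likelihood test of edgeR, Benjamini-Hochberg adjustment). The call of Adgre1 rested on single libraries: without female LKO replicate 1 the log2 fold change was 1.21, and the adjusted p in edgeR was above 0.05 without female CRE- replicates 1, 2, 3 and 4 (0.0832, 0.139, 0.121 and 0.0919), female LKO replicates 1 and 3 (0.189 and 0.0561), male CRE- replicate 1 (0.0614) and male LKO replicates 2, 3 and 4 (0.0592, 0.0572 and 0.0596). Neutrophil markers (led by S100a9, mean 32.3 CPM) summed to 34.7, 19.3, 15.4 and 15.05 CPM in female CRE- and to 117, 41.2, 54.5 and 510.2 CPM in female LKO replicates 1 to 4, with Mpo the 1 of 5 tested genes past the threshold and 5 of 5 higher at an unadjusted p under 0.05 (median 3.17). The Mpo groups overlapped, and its adjusted p in edgeR, 0.0332, was above 0.05 without female CRE- replicates 2, 3 and 4 (0.114, 0.103 and 0.0890) and female LKO replicates 1 and 4 (0.0655 and 0.0685). It was also above 0.05 with females fitted alone in edgeR (0.0763) and with limma-voom (0.0884). Female LKO replicate 4 was far above the rest of its group, with S100a9 at 257.7 CPM and at 39.9, 17.6 and 24.9 CPM in replicates 1 to 3. Proliferation markers (led by Mki67, mean 7.07 CPM) summed to 9.60, 7.96, 4.60 and 17.3 CPM in female CRE- and to 76.2, 14.9, 30.2 and 31.6 CPM in female LKO replicates 1 to 4, and 4 of 5 (Top2a, Ccnb1, Cdk1 and Birc5) rose in edgeR. Without single libraries their adjusted p was above 0.05 for Top2a without female CRE- replicates 1, 2, 3 and 4 (0.0809, 0.136, 0.117 and 0.0523), female LKO replicates 1, 3 and 4 (0.139, 0.0528 and 0.0529), male CRE- replicate 1 (0.0546) and male LKO replicate 2 (0.0550). It was above 0.05 for Ccnb1 without female CRE- replicates 2, 3 and 4 (0.0938, 0.0810 and 0.0585) and female LKO replicate 1 (0.0695), for Cdk1 without female CRE- replicates 1, 2 and 3 (0.0586, 0.0988 and 0.0874) and female LKO replicate 1 (0.0638) and for Birc5 without female CRE- replicates 1, 2 and 3 (0.0511, 0.0708 and 0.0756) and female LKO replicate 1 (0.0655). No gene of these 4 lists was at 0 in all libraries. In males the macrophage sums were 754, 398, 224 and 1127 CPM in controls and 1063, 558, 607 and 576 CPM in LKO mice, with 0 of 8 genes past edgeR's threshold and 0 at an unadjusted p under 0.05. Neutrophil sums in males were 75.9, 19.4, 16.1 and 137 CPM in CRE- and 25.0, 16.01, 12.3 and 11.6 CPM in LKO replicates 1 to 4. Here 0 of 5 genes passed edgeR's test and 4 of 5 were lower at an unadjusted p under 0.05 (median log2 fold change -2.23), beside 793 of 16742 genes. In the interaction 0 of 5 passed and 5 of 5 had an unadjusted p under 0.05, beside 2672 of 16742 genes. In whole liver, fewer hepatocytes and less RNA per hepatocyte cannot be told apart, and the part that these cell markers had in the results on BCAA genes was not tested. Female LKO replicates 1 and 4 were also left out together, as high in neutrophil or macrophage markers. Then 0 members passed edgeR's test in females, beside 78 of 17593 genes. At an unadjusted p under 0.05 in the same edgeR fit there were 3 of 10 members, beside 2025 of 17593 genes. With fewer female LKO libraries, a lost call and a loss of power cannot be told apart.

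**Figure D1:**
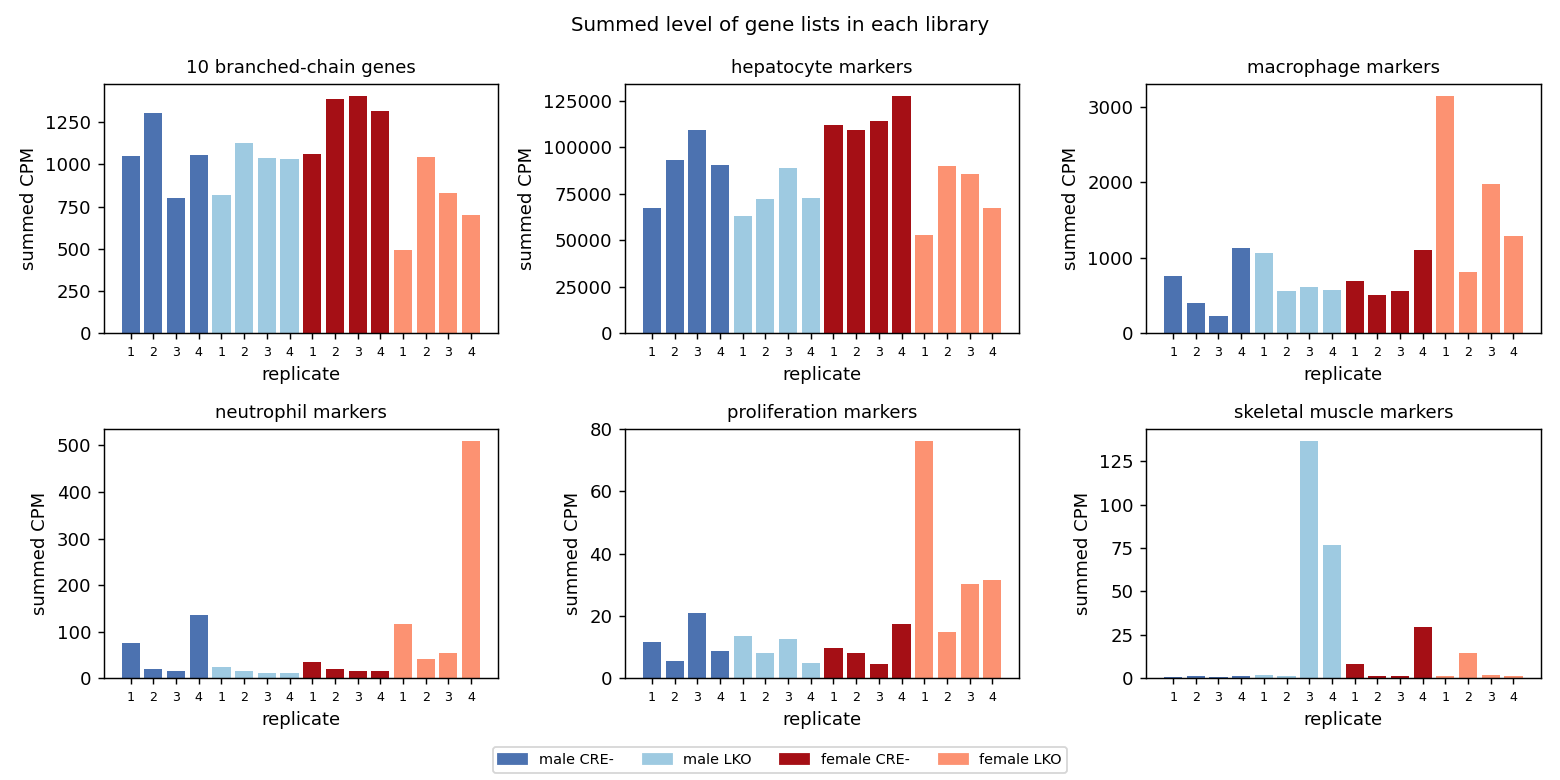
Summed level of the 10 BCAA degradation genes and of 5 lists of cell markers in each library (y axis, summed CPM; x axis, replicate; colours, the 4 groups). Female LKO replicate 1 has the lowest sum of BCAA genes, 495 CPM, and the highest macrophage sum, 3154 CPM.

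Per length, the order of the members by group mean was the same in male and in female controls. In female CRE- mice Hibadh was highest at 226 ± 35.8 RPKM (SD, n = 4), followed by Bckdha at 122 ± 19.9, Ivd at 62.4 ± 6.80, Bckdhb at 51.0 ± 6.97, Mccc2 at 36.4 ± 4.92 and Dbt at 23.5 ± 4.01 RPKM. Lower still were Mccc1 at 12.8 ± 1.26, Bcat2 at 12.6 ± 1.69, Ppm1k at 6.53 ± 2.01 and Bckdk at 4.91 ± 0.972 RPKM (SD, n = 4 each). Ivd and Bckdhb, Mccc1 and Bcat2, and Ppm1k and Bckdk were neighbours whose values overlapped in these controls, and in male CRE- mice Bcat2, Mccc1 and Ppm1k (9.61, 9.86 and 9.11 RPKM) could not be ordered beyond their spread. Male control values also overlapped between Hibadh and Bckdha, Ivd and Bckdhb, Bckdhb and Mccc2, and Mccc2 and Dbt. Subunits of one complex thus had unlike RPKM. This rests on the exon length of the count table, 5535 bases for Mccc1 and 2124 bases for Mccc2, which may differ from the expressed transcript. In CPM the female control values of Mccc1 (63.2 to 79.2) and Mccc2 (63.2 to 85.8) overlapped. Bckdha was above Bckdhb and Bckdhb above Dbt in the group means of RPKM, and Mccc2, the smaller carboxylase subunit, was above Mccc1.

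Transamination in mitochondria is carried out by Bcat2. Its level ranged from 16.4 to 32.7 CPM in male CRE-, from 22.0 to 28.9 CPM in male LKO, from 27.9 to 37.9 CPM in female CRE- and from 18.8 to 27.4 CPM in female LKO mice. The male groups overlapped and the female groups did not, although by a narrow margin. The log2 fold change was -0.01 (SE 0.22) in males and -0.41 (SE 0.22, adjusted p = 0.294 in the quasi-likelihood test of edgeR, Benjamini-Hochberg adjustment) in females, so neither passed. With single libraries left out the male value of Bcat2 ranged from -0.18 (male CRE- replicate 3) to 0.16 (male CRE- replicate 4). Bcat1, the cytosolic transaminase, was nearly absent, with at most 8 reads in a library, and was not tested.

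Bckdha and Bckdhb encode the alpha and beta subunits of the BCKDH decarboxylase. Bckdha was at 200.1, 262, 129 and 245 CPM in male CRE- replicates 1 to 4 and at 202, 285, 238 and 280.1 CPM in male LKO replicates 1 to 4. In females it was at 199.8, 249.8, 294 and 281 CPM in CRE- replicates 1 to 4 and at 87.2, 238, 186 and 148 CPM in LKO replicates 1 to 4. Groups overlapped in both sexes, with female LKO replicate 2 among the controls. The log2 fold change of Bckdha was 0.27 (SE 0.27) in males and -0.63 (SE 0.27, adjusted p = 0.189 in the quasi-likelihood test of edgeR, Benjamini-Hochberg adjustment) in females. The difference between these, -0.90 in log2 (95% confidence interval -1.72 to -0.08), had an unadjusted p of 0.0333 and an adjusted p of 0.284 in the same edgeR test, and so was not past the threshold. Single libraries moved these values: Bckdha was at -0.40 in females without female LKO replicate 1 and at 0.08 in males without male CRE- replicate 3. Bckdhb ranged from 42.6 to 94.3 CPM in male CRE- and from 53.4 to 73.9 CPM in male LKO mice, and from 73.9 to 104 CPM in female CRE- and from 36.6 to 90.2 CPM in female LKO mice. These ranges overlapped in each sex, with log2 fold changes of -0.11 (SE 0.26) in males and -0.36 (SE 0.26) in females. With female LKO replicate 1 left out, the female value of Bckdhb was -0.13, and the male value ranged from -0.30 to 0.0811 with single libraries left out, without male CRE- replicates 3 and 2.

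Dbt encodes the transacylase core of the BCKDH complex, which carries lipoic acid. It was at 71.98, 84.2, 75.4 and 53.5 CPM in male CRE- replicates 1 to 4 and at 48.6, 60.5, 76.4 and 49.9 CPM in male LKO replicates 1 to 4. Female CRE- replicates 1 to 4 had 70.1, 94.0, 77.1 and 63.8 CPM, and female LKO replicates 1 to 4 had 41.5, 63.6, 42.5 and 45.0 CPM. Male values overlapped, and female values were separated only by the gap between LKO replicate 2 and CRE- replicate 4. The log2 fold change was -0.28 (SE 0.20) in males and -0.66 (SE 0.20, adjusted p = 0.0691 in the quasi-likelihood test of edgeR, Benjamini-Hochberg adjustment) in females. The male value ranged from -0.42 to -0.18 with single libraries left out (male LKO replicate 3 and male CRE- replicate 2). With female LKO replicate 2 left out, the female value of Dbt was -0.83 and its adjusted p in edgeR 0.0263, past the threshold. With all libraries, the log2 fold change of Dbt in female LKO against female CRE- mice passed with DESeq2 and limma-voom (adjusted p = 0.0277 and 0.0164).

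The kinase and the phosphatase of the complex did not pass in either sex. Bckdk, the kinase that inactivates BCKDH, ranged from 10.3 to 16.4 CPM in male CRE-, from 14.97 to 17.8 CPM in male LKO, from 12.1 to 18.1 CPM in female CRE- and from 11.8 to 17.7 CPM in female LKO mice. Each male LKO value was above the mean of the male controls, at 12.9 CPM, yet the highest control reached into the LKO range. Log2 fold changes of Bckdk were 0.33 (SE 0.19, adjusted p = 0.628 in the quasi-likelihood test of edgeR, Benjamini-Hochberg adjustment) in males and 0.06 (SE 0.19) in females; with single libraries left out they ranged from 0.22 to 0.46 and from -0.02 to 0.22. Ppm1k, the mitochondrial phosphatase that reactivates BCKDH, spread widely within each group, from 61.8 to 117 CPM in male CRE-, 42.9 to 104 CPM in male LKO, 36.4 to 77.7 CPM in female CRE- and 34.8 to 71.9 CPM in female LKO mice. Its log2 fold changes were -0.21 (SE 0.30) and -0.08 (SE 0.30) in males and females. They ranged from -0.41 (male LKO replicate 3 left out) to -0.03 (male LKO replicate 1) in males and from -0.25 (female CRE- replicate 4) to 0.11 (female LKO replicate 4) in females. Per length, the ratio of Bckdk to Ppm1k was 0.387, 0.637, 0.293 and 0.881 in male CRE- and 1.16, 0.695, 0.519 and 0.773 in male LKO replicates 1 to 4. The same ratio was 0.688, 0.581, 0.544 and 1.66 in female CRE- and 0.895, 0.547, 0.882 and 1.19 in female LKO replicates 1 to 4. These ratios rest on the exon lengths of the count table, 2857 bases for Bckdk and 9503 bases for Ppm1k. They overlapped between genotypes in both sexes and were not tested.

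Leucine is degraded further by isovaleryl-CoA dehydrogenase, encoded by Ivd, and by the biotin-dependent methylcrotonyl-CoA carboxylase, whose alpha subunit, which binds biotin, is Mccc1 and whose beta subunit is Mccc2. Both carboxylase genes fell in female LKO mice. Mccc1 was at 63.2, 79.2, 72.9 and 67.4 CPM in female CRE- replicates 1 to 4 and at 23.8, 51.2, 36.4 and 35.2 CPM in female LKO replicates 1 to 4. The groups did not overlap, LKO replicate 1 being lowest and LKO replicate 2 closest to the controls. The means were 70.7 ± 6.95 and 36.6 ± 11.2 CPM (SD, n = 4 each), a log2 fold change of -0.95 (SE 0.20, 95% confidence interval -1.37 to -0.53, adjusted p = 0.0206 in the quasi-likelihood test of edgeR, Benjamini-Hochberg adjustment). Male CRE- replicates 1 to 4 had 54.5, 61.5, 57.9 and 44.5 CPM and male LKO replicates 1 to 4 had 37.8, 42.6, 53.9 and 47.9 CPM. These overlapped, with all 4 male LKO values below the mean of the controls, and in males the difference in log2 was -0.26 (SE 0.20) with an adjusted p of 0.713 in the same edgeR fit. Without female LKO replicate 1 the female value of Mccc1 was -0.77 with an adjusted p of 0.0421 in edgeR, still past the threshold. It was not past it without female CRE- replicate 2 (-0.89, adjusted p = 0.0773), replicate 3 (-0.93, adjusted p = 0.0603) or replicate 4 (-0.95, adjusted p = 0.0585), nor with females fitted alone in edgeR (-0.93, adjusted p = 0.0786).

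Mccc2 was at 63.2, 84.6, 85.8 and 75.8 CPM in female CRE- replicates 1 to 4 and at 32.5, 52.8, 46.0 and 28.1 CPM in female LKO replicates 1 to 4. Again the groups did not overlap, here with LKO replicate 4 lowest. From 77.3 ± 10.4 CPM in controls the level was 39.9 ± 11.5 CPM in LKO mice (SD, n = 4 each), a log2 fold change of -0.96 (SE 0.21, 95% confidence interval -1.40 to -0.51, adjusted p = 0.0250 in the quasi-likelihood test of edgeR, Benjamini-Hochberg adjustment). Male values overlapped, at 54.5, 72.9, 50.6 and 56.4 CPM in CRE- and 37.8, 60.2, 54.5 and 58.3 CPM in LKO replicates 1 to 4, with a log2 fold change of -0.15 (SE 0.21), which ranged from -0.23 (male LKO replicate 2 left out) to -0.03 (male CRE- replicate 2). The female call was lost without female LKO replicate 1 (-0.85, adjusted p = 0.0687), female LKO replicate 4 (-0.81, adjusted p = 0.0533) or female CRE- replicates 2, 3 or 4 (adjusted p = 0.0848, 0.0761 and 0.0636 in edgeR). Females fitted alone gave -0.94 and an adjusted p of 0.0758.

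The log2 fold change of Ivd in female LKO against female CRE- mice did not pass in edgeR, but passed with DESeq2 and limma-voom (adjusted p = 0.0337 and 0.0159). It was at 198, 252, 240.2 and 215 CPM in female CRE- replicates 1 to 4 and at 60.6, 179, 133 and 123 CPM in female LKO replicates 1 to 4. No LKO value reached a control value, and LKO replicate 1 was far below the rest of its group. The log2 fold change was -0.87 (SE 0.28, adjusted p = 0.0817 in the quasi-likelihood test of edgeR, Benjamini-Hochberg adjustment), and -0.62 (adjusted p = 0.197) without female LKO replicate 1. With female LKO replicate 2 left out it was -1.10 with an adjusted p of 0.0314 in edgeR, past the threshold. In males Ivd was at 176, 197, 91.9 and 171 CPM in CRE- and 114, 158, 157 and 128 CPM in LKO replicates 1 to 4, overlapping through CRE- replicate 3, with a log2 fold change of -0.19 (SE 0.28), which ranged from -0.40 (CRE- replicate 3 left out) to -0.07 (CRE- replicate 2).

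Valine degradation is represented by Hibadh, the mitochondrial hydroxyisobutyrate dehydrogenase, which fell in female LKO mice. It was at 299, 420.0, 428 and 419 CPM in female CRE- replicates 1 to 4 and at 111, 267, 219 and 157 CPM in female LKO replicates 1 to 4. Groups did not overlap, with CRE- replicate 1 apart from the other controls and LKO replicate 1 lowest. The level was 391 ± 62.1 CPM in controls and 188 ± 68.4 CPM in LKO mice (SD, n = 4 each), a log2 fold change of -1.06 (SE 0.26, 95% confidence interval -1.61 to -0.50, adjusted p = 0.0362 in the quasi-likelihood test of edgeR, Benjamini-Hochberg adjustment). Male values overlapped, at 294, 427, 212 and 301 CPM in CRE- and 239, 335, 258 and 278 CPM in LKO replicates 1 to 4, with a log2 fold change of -0.15 (SE 0.26), which ranged from -0.31 (male CRE- replicate 3 left out) to 0.05 (male CRE- replicate 2). In females the call was lost without LKO replicate 1 (-0.85, adjusted p = 0.0916) or LKO replicate 4 (-0.97, adjusted p = 0.0742). It was also lost without CRE- replicates 2, 3 or 4 (adjusted p = 0.107, 0.0988 and 0.0848 in edgeR), and without male CRE- replicate 1 or male LKO replicate 4 (adjusted p = 0.0503 and 0.0519). With females fitted alone the log2 fold change was -1.03 and the adjusted p 0.0990.

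**Figure D2:**
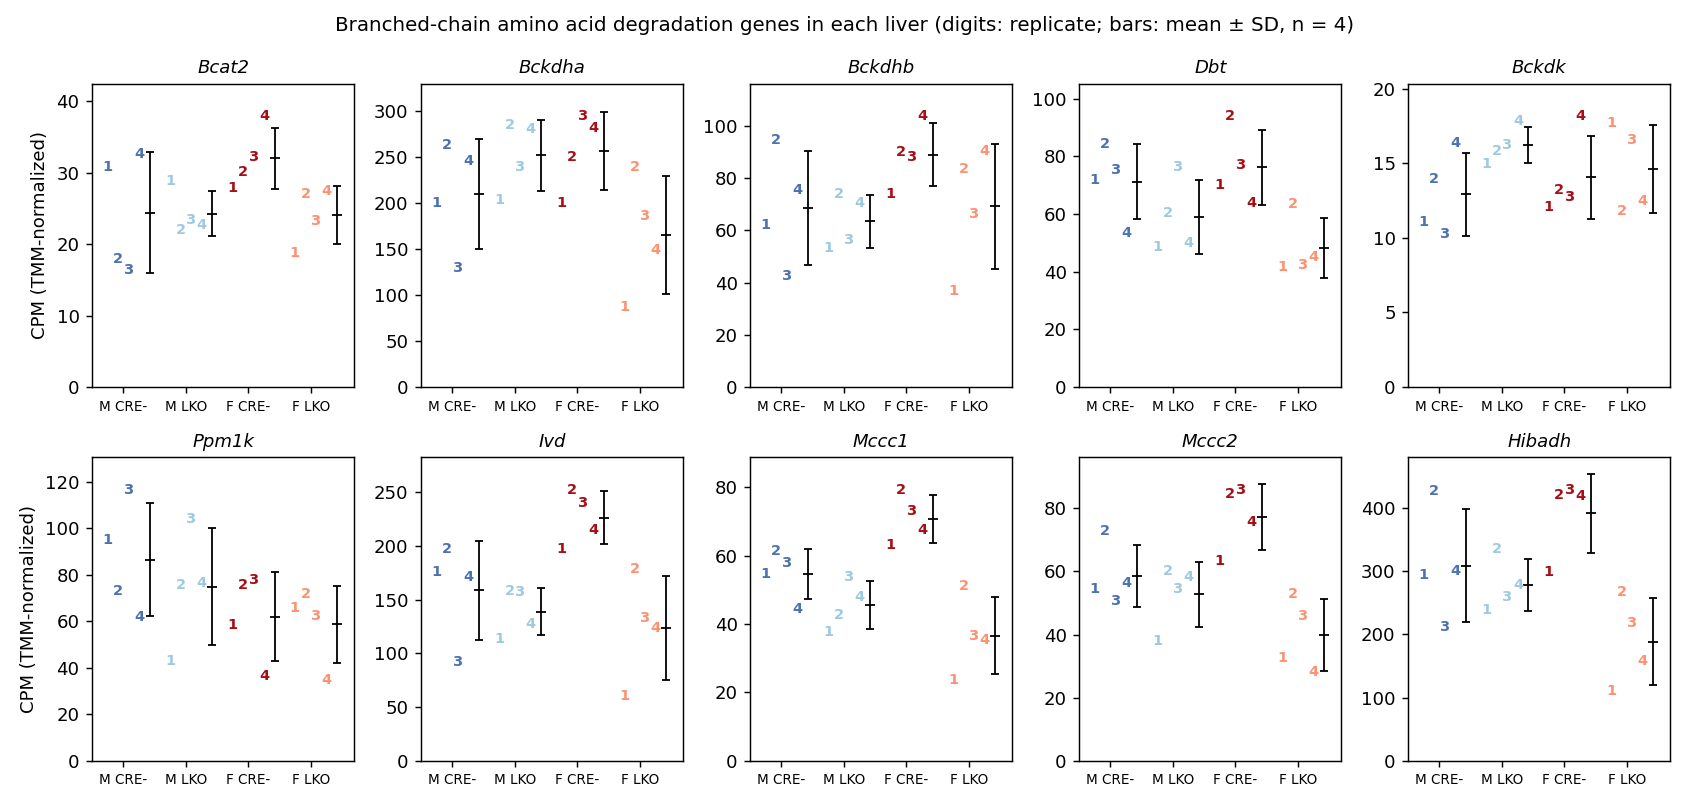
Level of each member in each liver (y axis, TMM-normalized CPM from 0; x axis, the 4 groups, M male and F female; digits are replicate numbers, black bars the mean ± SD, n = 4). In female LKO mice Mccc1, Mccc2 and Hibadh lie below all 4 female controls, and male groups overlap for each gene.

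Over the members, 3 of 10 fell in females by edgeR's test (Mccc1, Mccc2 and Hibadh) and 0 rose, beside 2.15% of the 16742 genes that fell. At an unadjusted p under 0.05, 6 of 10 were lower (those 3, Bckdha, Dbt and Ivd), beside 9.14% of genes. All female LKO values lay below all female CRE- values for 6 of 10 (Bcat2, Dbt, Ivd, Mccc1, Mccc2 and Hibadh), beside 6.42% of genes. The median log2 fold change in females was -0.65 over the members and 0.04 over the genes tested. Bckdk, the kinase, was the only member above zero in females. The count of 3 turned on single libraries: it was 2 without male CRE- replicate 1 or male LKO replicate 4, 1 with female LKO replicate 1 or 4 left out, 5 with female LKO replicate 2 left out, and 0 without female CRE- replicate 2, 3 or 4. Female log2 fold changes of Dbt, Ivd, Mccc1, Mccc2 and Hibadh were below zero under each alternative run.

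In males 0 of 10 members passed edgeR's test, beside 0.454% of genes, and 0 had an unadjusted p under 0.05, beside 1595 of 16742 genes. At an adjusted p under 0.05 DESeq2 and limma-voom gave 0 as well, beside 339 of 16684 and 148 of 16742 genes. At an unadjusted p under 0.05 they had 0 and 1 members, beside 1872 of 16684 and 2264 of 16742 genes. The median log2 fold change was -0.15 over the members and -0.01 over the genes tested. It moved with single libraries, to -0.05 without male CRE- replicate 2, -0.24 without male CRE- replicate 3 and -0.08 without male LKO replicate 1. For 0 of 10 members did all LKO values lie below all control values, beside 2.92% of genes. The male confidence intervals were wide, for Mccc1 from -0.68 to 0.16 and for Hibadh from -0.70 to 0.40 in log2, which leave room for a male difference in either direction.

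Whether the sexes differed was tested directly as the interaction of sex and genotype. By edgeR 0 of 10 members passed, beside 0% of genes, while DESeq2 and limma-voom gave 0 members with 371 of 16684 and 29 of 16742 genes past their thresholds. At an unadjusted p under 0.05, 4 of 10 (Bckdha, Mccc1, Mccc2 and Hibadh) had a more negative difference in females, beside 6.68% of genes. The interaction of Mccc2 was -0.80 in log2 (95% confidence interval -1.43 to -0.17, adjusted p = 0.240 in the quasi-likelihood test of edgeR, Benjamini-Hochberg adjustment). A fall in females without one in males is therefore not shown to be a difference between the sexes for any of the 10 genes. The count at an unadjusted p under 0.05 ranged from 2 to 5 with single libraries left out: it was 2 without male CRE- replicate 3, male LKO replicate 2, female CRE- replicate 4 or female LKO replicate 4, and 5 with female LKO replicate 2 left out. With female LKO replicate 1 and male CRE- replicate 3 both left out it was 1, with male LKO replicates 3 and 4 left out 1, and with female LKO replicates 1 and 4 left out 0.

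As the mean of the male and female differences, 1 of 10 members fell, beside 1.65% of genes. This was Mccc1, at -0.60 in log2 (SE 0.14, adjusted p = 0.0276 in the quasi-likelihood test of edgeR, Benjamini-Hochberg adjustment) and 8 of 8 LKO animals below the mean of their sex-matched controls. It was not past the threshold without female CRE- replicates 2 or 3 (adjusted p = 0.0679 and 0.0569), male CRE- replicate 2 (0.0618) or male LKO replicates 1 or 2 (0.0624 and 0.0565). Mccc2 was at -0.55 (adjusted p = 0.0574), Dbt at -0.47 (adjusted p = 0.0921) and Hibadh at -0.60 (adjusted p = 0.0955) in the same edgeR test. These 3 also passed with female LKO replicate 2 left out (adjusted p = 0.0255, 0.0394 and 0.0407 for Mccc2, Dbt and Hibadh), and Mccc2 with male CRE- replicate 3 left out (adjusted p = 0.0494).

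**Figure D3:**
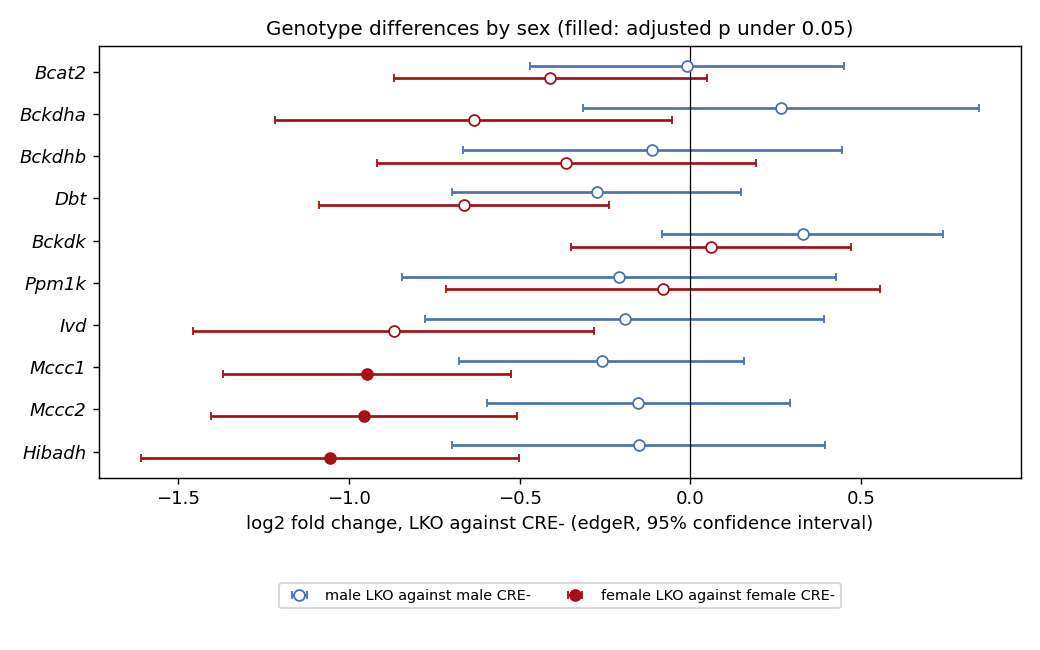
Log2 fold change of each member, LKO against CRE-, in males and females (x axis, log2 from edgeR with 95% confidence intervals, n = 4 against 4 in each sex; filled points have an adjusted p under 0.05). Filled points are Mccc1, Mccc2 and Hibadh in females, at -0.95, -0.96 and -1.06.

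Female and male controls were compared to see where the members stood without the knockout. By edgeR 0 of 10 passed, beside 0.92% of genes, and 0 had an unadjusted p under 0.05, beside 2121 of 16742 genes. DESeq2 and limma-voom gave 0 members at an adjusted p under 0.05, beside 509 of 16359 and 329 of 16742 genes. At an unadjusted p under 0.05 DESeq2 had 0 members and limma-voom 3, beside 2458 of 16359 and 2723 of 16742 genes. For Ivd and Mccc1 all female values lay above all male values, 2 of 10 beside 4.37% of genes. The median over the members was 0.36 in log2, female minus male (0.19 without male CRE- replicate 3), and -0.01 over the genes tested, and Ppm1k was the member below zero (-0.48, SE 0.30; -0.32 without male CRE- replicate 3). The controls that served for the female comparison thus had means above those of the male controls for 9 of the 10 genes, by differences that did not pass the test.

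Genes around these members were described from lists of the same pathway. Slc25a44, which carries BCAA into mitochondria, was at 100.3, 84.3, 92.3 and 123 CPM in female CRE- and 41.4, 68.9, 54.3 and 53.2 CPM in female LKO replicates 1 to 4. It fell without overlap (log2 fold change -0.88, SE 0.23, adjusted p = 0.0428 in the quasi-likelihood test of edgeR, Benjamini-Hochberg adjustment), and was not past the threshold without any 1 of the female controls (adjusted p = 0.0713, 0.0868, 0.0893 and 0.108 without replicates 1 to 4), nor without female LKO replicates 1, 3 or 4 (0.123, 0.0685 and 0.0728) or male LKO replicates 3 or 4 (0.0545 and 0.0583). Slc7a5 and Slc3a2, the light and heavy chain of a plasma membrane exchanger of large neutral amino acids, rose in the mean genotype effect, by 1.29 (SE 0.31, adjusted p = 0.0322) and 0.85 (SE 0.19, adjusted p = 0.0223) in log2 in the same edgeR test. Slc3a2 was at 39.5, 43.0, 25.1 and 47.1 CPM in male CRE- and 149, 83.8, 59.2 and 72.1 CPM in male LKO replicates 1 to 4, which did not overlap. In females it was at 51.3, 53.8, 49.6 and 74.1 CPM in CRE- and 104, 69.0, 75.7 and 67.9 CPM in LKO replicates 1 to 4, which overlapped through CRE- replicate 4. It passed in neither sex on its own (adjusted p = 0.0573 in males and 0.335 in females). Slc7a5 was far lower, from 1.14 to 3.92 CPM in male CRE- and 5.04 to 9.39 CPM in male LKO mice, and from 2.96 to 6.19 CPM in female CRE- and 6.33 to 22.8 CPM in female LKO mice, with no overlap in either sex. The mean effect of Slc3a2 was not past the threshold without female CRE- replicates 2 or 3 (adjusted p = 0.0538 and 0.0542). That of Slc7a5 was not past it without male CRE- replicate 2 (0.0522), male LKO replicates 1 or 4 (0.0749 and 0.0584), female CRE- replicates 2, 3 or 4 (0.0791, 0.0701 and 0.0680) or female LKO replicate 1 (0.0519). Of the 5 genes of this list tested, 1 fell in females, beside 2.15% of genes, and 0 passed in males, beside 0.454% of genes. In the mean effect 2 rose, beside 201 of 16742 genes. Slc43a1 did not pass, at 3.69 to 6.76 CPM in male CRE- and 0.978 to 2.68 CPM in male LKO mice, without overlap. In females it overlapped, at 3.62 to 10.3 CPM in CRE- and 1.01 to 6.71 CPM in LKO mice.

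Of 19 genes that follow or complete the members' steps, 2 fell in females, beside 2.15% of genes, and 12 were lower at an unadjusted p under 0.05, beside 9.14% of genes. Of 9 other acyl-CoA enzymes among them, 1 fell in females, 7 were lower at an unadjusted p under 0.05, and the median log2 fold change was -0.66, beside 0.11 in males, where 0 passed and 0 had an unadjusted p under 0.05. The gene that fell was Aldh6a1, the methylmalonate semialdehyde dehydrogenase that acts after Hibadh, from 470.2 to 265 CPM as group means (log2 fold change -0.83, SE 0.23, adjusted p = 0.0489 in the quasi-likelihood test of edgeR, Benjamini-Hochberg adjustment). The adjusted p of Aldh6a1 was above 0.05 without female CRE- replicates 1, 2, 3 and 4 (0.0573, 0.164, 0.137 and 0.0679), female LKO replicates 1, 3 and 4 (0.118, 0.0761 and 0.0962), male CRE- replicate 1 (0.0612) and male LKO replicates 1, 2, 3 and 4 (0.0511, 0.0643, 0.0642 and 0.0644). Of 6 genes of the propionyl-CoA branch, 1 fell in females and 4 were lower at an unadjusted p under 0.05, with a median of -0.70 in females and -0.04 in males. Mmaa, a chaperone of the cobalamin cofactor of methylmalonyl-CoA mutase, was at 22.5, 27.7, 20.7 and 23.7 CPM in female CRE- and 7.78, 12.3, 13.2 and 13.9 CPM in female LKO replicates 1 to 4. It fell without overlap (-1.01, SE 0.21, adjusted p = 0.0216) and also in the mean effect (-0.60, adjusted p = 0.0385) by the same edgeR test; the female call was lost without female CRE- replicate 2 or 4 (adjusted p = 0.0830 and 0.0614), and that in the mean effect without female CRE- replicates 1, 2, 3 and 4 (0.0590, 0.0972, 0.0554 and 0.0650), male CRE- replicates 1 and 2 (0.0602 and 0.0878) and male LKO replicates 1, 2, 3 and 4 (0.0816, 0.0533, 0.0615 and 0.0633). The shared dehydrogenase subunit and lipoylation list had 0 of 4 past the threshold in each comparison by edgeR, with 1 at an unadjusted p under 0.05 in females, Lipt1, a lipoyltransferase, at -0.92 (SE 0.26, adjusted p = 0.0538). Over these 19 genes together the log2 fold change was below zero for 19 in females and 7 in males, beside 7849 and 8523 of the 16742 genes, with medians of -0.66 and 0.03.

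Cofactor supply and electron transfer had 0 genes past edgeR's threshold. Of 2 genes of biotin attachment and recycling, which serve the biotin-dependent carboxylases, Btd (biotinidase) had the smallest unadjusted p over the comparisons, that between controls. It was higher in female than in male controls by 0.69 in log2 (SE 0.16, adjusted p = 0.0550 in the quasi-likelihood test of edgeR, Benjamini-Hochberg adjustment), and its log2 fold change was 0.31 in males and -0.48 in females. Of 3 electron acceptors of acyl-CoA dehydrogenases 2 were lower at an unadjusted p under 0.05 in females, beside 1530 of 16742 genes. Etfb, a subunit of the electron transfer flavoprotein, was at -0.65 (SE 0.22, adjusted p = 0.0984 in edgeR). Among 13 genes of the related pyruvate and oxoglutarate dehydrogenase complexes, 1 fell in females, beside 2.15% of genes. This list went both ways, with 9 genes below zero and 4 above. At an unadjusted p under 0.05 in edgeR, 3 were lower and 2 higher in females, beside 1530 and 2054 of 16742 genes. The gene that fell was Dlat, the transacetylase core of pyruvate dehydrogenase. Dlat was at 70.2, 89.9, 109 and 104.5 CPM in female CRE- and 48.9, 70.8, 59.2 and 51.7 CPM in female LKO replicates 1 to 4. Its groups overlapped through LKO replicate 2 and CRE- replicate 1 (log2 fold change -0.70, SE 0.19, adjusted p = 0.0486 in edgeR), and the adjusted p was above 0.05 without female CRE- replicates 2, 3 and 4 (0.122, 0.144 and 0.109), female LKO replicates 1, 3 and 4 (0.133, 0.0691 and 0.0901), male CRE- replicates 1 and 4 (0.0540 and 0.0567) and male LKO replicates 1, 2, 3 and 4 (0.0517, 0.0599, 0.0606 and 0.0650). Transcriptional regulators linked to BCAA catabolism had 0 of 4 past the threshold. At an unadjusted p under 0.05, 2 were lower in males and 1 in females, beside 793 and 1530 of 16742 genes. Ppargc1a, a coactivator induced by glucagon in fasting, had the smallest p, at -0.92 (SE 0.33, adjusted p = 0.333) in males and 0.14 (SE 0.33) in females.

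Between animals of the same group, 11 of 45 pairs of members had an r below zero. Deviations of log2 CPM from the group means were compared over the 16 libraries as a description, and share library depth and tissue make-up. Pearson r was highest for Bckdha with Hibadh, at 0.947, followed by Bckdha with Ivd at 0.917 and Ivd with Hibadh at 0.889. The carboxylase subunits Mccc1 and Mccc2 had an r of 0.644, Bckdha and Bckdhb of 0.876, and Bckdha and Dbt of 0.236. Median r with the other members was lowest for Ppm1k, Bckdk and Bcat2, at -0.01, 0.05 and 0.10, although Ppm1k had an r of 0.616 with Dbt and 0.478 with Mccc2. Bckdk with Dbt had the lowest r, at -0.516. Outside the lists, the genes whose log2 CPM was most like the mean of the members over the 16 libraries were Car5a (r = 0.974), Otc (0.971), C8g (0.962), Ndrg2 (0.962) and Nit2 (0.958). Car5a and Otc are mitochondrial enzymes of hepatocytes. Their female log2 fold changes, in that order, were -1.33, -1.27, -1.48, -0.67 and -1.12.

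The members lie apart in the genome. On GRCm39, Mccc1 is on chromosome 3 (36009584 to 36054843, minus strand), Mccc2 on chromosome 13 (100085040 to 100152147, minus strand) and Hibadh on chromosome 6 (52523215 to 52617285, minus strand). Bcat2, Bckdha and Bckdk are on chromosome 7, at starts of 45219773, 25329371 and 127503245, and Ppm1k is on chromosome 6 at 57483487, so members that share a chromosome are not neighbours.

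Promoters are shown for the 3 members that fell in females by edgeR's test. RefSeq promoter windows (GRCm38.p6) of 300 bases, 250 before and 50 after the gene start, were found by symbol for 9 of 10 members; Dbt had no entry. The cyclic AMP response element TGACGTCA was in 1.79% of the 32851 windows and in 0 of the 9 members, and the ATF4-type element TGATGCAA in 0.895% of windows and 0 of 9, on both strands. The short motif CCAAT, searched on both strands (as ATTGG on the other) and chosen after the sequences had been seen, was in 37.4% of windows and in 7 of 9 members: Bckdhb, Bckdk, Hibadh, Ivd, Mccc1, Mccc2 and Ppm1k. Below are the 250 bases before the start, 5′ to 3′ in the direction of transcription on the minus strand, placed on GRCm39 by exact match, with CCAAT or ATTGG in capitals; in Mccc2 a match on each strand overlaps as CCAATTGG. The windows are Mccc1 at chr3:36054828-36055077, Mccc2 at chr13:100152148-100152397 and Hibadh at chr6:52617286-52617535. The last 16 bases of the Mccc1 window lie inside the gene as the count table has it, and the other windows end at the base before the gene.
Mccc1: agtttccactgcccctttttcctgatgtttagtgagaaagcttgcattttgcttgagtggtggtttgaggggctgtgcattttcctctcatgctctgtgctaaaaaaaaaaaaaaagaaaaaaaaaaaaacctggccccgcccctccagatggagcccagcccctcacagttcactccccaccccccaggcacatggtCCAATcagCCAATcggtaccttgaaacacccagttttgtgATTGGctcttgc
Mccc2: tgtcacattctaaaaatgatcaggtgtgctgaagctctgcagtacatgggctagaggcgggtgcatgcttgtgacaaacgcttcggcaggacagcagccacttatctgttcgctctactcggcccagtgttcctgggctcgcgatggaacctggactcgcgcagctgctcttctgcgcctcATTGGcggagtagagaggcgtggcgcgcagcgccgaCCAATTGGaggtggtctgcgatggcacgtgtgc
Hibadh: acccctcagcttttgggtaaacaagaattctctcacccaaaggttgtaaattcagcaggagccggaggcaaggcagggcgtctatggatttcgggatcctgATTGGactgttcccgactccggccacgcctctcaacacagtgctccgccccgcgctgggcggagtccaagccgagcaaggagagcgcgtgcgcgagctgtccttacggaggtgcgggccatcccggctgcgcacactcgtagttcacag
These windows hold 3, 3 and 1 matches in that order. Counted from the RefSeq start at the end of the window, the matches start 52, 44 and 12 bases before it in Mccc1, 69, 33 and 30 bases in Mccc2 and 149 bases in Hibadh. The last match in Mccc1 lies in the 16 bases that are inside the gene of the count table. A match of these letters is a description of the window, not a measured binding site.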

How the data were processed

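The authors extracted RNA from mouse liver with the RNeasy Plus Mini kit. Novogene made stranded poly-A libraries and sequenced them on a NovaSeq X with paired ends. The authors mapped reads with STAR 2.7.1a to GRCm39 and counted them with featureCounts (Subread 2.0.6). The deposited table holds the count of reads per gene; the options given count reads and not pairs, and of counts from 1 to 20 in a library 81.4% to 87.9% were even, so mates appear to have been counted singly and are not independent. Its 16 columns were assigned to 4 groups of 4 mice by sex and genotype.

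Counts were fitted for all 16 libraries together in edgeR 4.0.16 (R 4.3.3) with TMM scaling, filterByExpr at a minimum count of 10, a group means model and quasi-likelihood tests, and p-values were adjusted by Benjamini-Hochberg over the 16742 of 41079 genes tested, with a threshold of 0.05. Confidence intervals use the moderated degrees of freedom of the same test. Comparisons were LKO against CRE- in each sex, the interaction of sex and genotype, the mean of both differences, and female against male CRE-. Log2 CPM used a prior count of 2, and RPKM the exon length of the table. Code was tested on simulated data.

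Named were the 10 members, Gcgr, each gene of the pathway lists with an adjusted p under 0.05 in any comparison or else the gene of the list with the smallest unadjusted p, and the 5 other genes most correlated with the mean of the members. Pathway lists covered BCAA entry and cytosolic transamination, lipoylation, other acyl-CoA steps, the propionyl-CoA branch, biotin, electron acceptors, related dehydrogenase complexes and transcriptional regulators. Marker lists were those of hepatocytes, macrophages, neutrophils, endothelium, B and plasma cells, T and NK cells, stellate cells and fibroblasts, cholangiocytes, skeletal muscle, adipocytes, pancreatic acini, erythroid cells and proliferation. The members and lists were chosen with earlier results of these data known.

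Alternatives were RLE and upper quartile scaling, DESeq2 1.42.0, limma-voom with sample quality weights (limma 3.58.1), each sex fitted alone, no filter, at least 10 counts in every library, the replicate number as a block, an adjusted p under 0.1, and each library left out in turn. Another 3, chosen after seeing the data, left out pairs of libraries. Promoter sequences are from RefSeq (GRCm38.p6).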

Additional observations from a re-analysis of the deposited data

Results flagged for a closer look

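In 44 groups of 4 libraries the gap between the most extreme library and the nearest other was compared with the range of the group, and 3 groups exceeded Dixon's critical value for 4 samples; chance exceeds it in about 1 of 20 groups. Dbt was at 63.6 CPM in female LKO replicate 2, while the other female LKO libraries were at 41.5 to 45.0 CPM; without this library its female log2 fold change was -0.83 in place of -0.66. Hibadh was at 299 CPM in female CRE- replicate 1 and at 419 to 428 CPM in the other female controls, and without that library the log2 fold change of Hibadh in female LKO against female CRE- mice was -1.17 in place of -1.06. Gcgr was at 127 CPM in male CRE- replicate 3 and at 189.6 to 193 CPM in the other male controls. The causes were not tested.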

How the results depend on the processing

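Over 50 pairs of a member and a comparison, 1238 of 1320 values under alternatives kept their direction and side of the threshold, 32 were no longer past it, 23 were newly past it and 27 reversed, each of the last without a call. In females 3 members passed in edgeR at an adjusted p under 0.05, and 5 at one under 0.1, 5 with DESeq2, 5 with limma-voom (Dbt and Ivd beside the 3), 0 with each sex fitted alone (710 of 16742 genes in edgeR, 1816 of 16359 with DESeq2, 1976 of 16742 with limma-voom, 119 of 15744 with females alone), and 0 to 5 without single libraries. Without female LKO replicate 1 and male CRE- replicate 3 the count was 1, without male LKO replicates 3 and 4 it was 2 (Hibadh at an adjusted p of 0.0688), and without female LKO replicates 1 and 4 it was 0, where log2 fold changes were -0.67 for Mccc1, -0.62 for Mccc2 and -0.67 for Hibadh. With upper quartile scaling it was 2, Hibadh having an adjusted p of 0.0503. Upper quartile scaling also lost Adgre1, Slc25a44, Aldh6a1 and Dlat in females and Mmaa in the mean effect (0.0516 to 0.0584). With females fitted alone in edgeR, Slc25a44, Aldh6a1, Mmaa and Dlat did not pass (adjusted p = 0.0758, 0.117, 0.0685 and 0.107). Nor did Adgre1, Cdh5, Top2a, Ccnb1, Cdk1 and Birc5 (0.0638 to 0.0862). Without female LKO replicates 1 and 4 the female calls of all these genes were lost (0.125 to 0.400). The mean effect had 1 member, and 4 at an adjusted p under 0.1, 4 with DESeq2, 5 with limma-voom (478, 1034 and 857 genes in edgeR, DESeq2 and limma-voom), 0 to 4 without single libraries, 2 without female LKO replicate 1 and male CRE- replicate 3, and 0 without female LKO replicates 1 and 4 or without male LKO replicates 3 and 4. Counts for males, the interaction and the controls were 0 in edgeR under each alternative run. Pairs of libraries were chosen after seeing the data. Female LKO replicates 1 and 4 were high in neutrophil or macrophage markers, and male LKO replicates 3 and 4 in skeletal muscle markers. Female LKO replicate 1 and male CRE- replicate 3 stood apart from their groups. In the column names of the deposited counts, male CRE- replicate 4 and female LKO replicates 3 and 4 carry other numbers than in the sample titles. The numbers of the titles were also fitted as a replicate block. LKO and CRE- samples of the same number had r over 0.1 in 6 of 8 pairs (lowest -0.0130, highest 0.173) and 4 of 8 matched best with their own number; between male and female controls r was 0.0275 to 0.332 and 3 of 4 did. Not every pair was over 0.1, so samples were not treated as paired. With the block 5 members (Dbt and Ivd beside the 3) passed in females and 4 in the mean effect, with 1244 and 629 of 16742 genes, and Bcat2 in males was at 0.0258. Other reversed log2 fold changes were those of Bcat2 in males (-0.18 to 0.16 without single libraries, 0.0583 without male LKO replicates 3 and 4), Bckdhb and Hibadh in males (-0.30 to 0.0811 and -0.31 to 0.0477 without single libraries), the log2 fold change of Bckdk in female LKO against female CRE- mice (-0.0232 to 0.22 without single libraries, -0.0226 without female LKO replicate 1 and male CRE- replicate 3) and that of Ppm1k (-0.25 to 0.11, and 0.14 without female LKO replicates 1 and 4). In the interaction Ppm1k was at -0.0896 with limma-voom, -0.0388 to 0.33 without single libraries and -0.0746 without female LKO replicate 1 and male CRE- replicate 3, where Bckdhb was at 0.16. The log2 fold change of Bckdha in mean genotype effect over both sexes was 0.00334 without female LKO replicates 1 and 4, and female minus male controls ranged from -0.0169 to 0.19 for Dbt and from -0.0655 to 0.26 for Bckdk without single libraries. The causes were not tested.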

Other observations

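Endothelial markers (led by Stab2, mean 58.8 CPM) had 1 of 6 genes past edgeR's threshold in females, beside 350 of 16742 genes that rose. The list went both ways, with 4 genes above zero and 2 below. Clec4g, which did not pass, was at 55.5, 78.4, 74.3 and 87.2 CPM in female CRE- and 28.3, 72.9, 53.3 and 26.7 CPM in female LKO replicates 1 to 4. Cdh5, the endothelial cadherin, was at 36.4, 38.5, 36.8 and 27.7 CPM in female CRE- and 72.9, 42.5, 63.7 and 61.8 CPM in female LKO replicates 1 to 4, which did not overlap. The difference was 0.79 in log2 (SE 0.17, adjusted p = 0.0249 in the quasi-likelihood test of edgeR, Benjamini-Hochberg adjustment), and its adjusted p was above 0.05 without female CRE- replicates 2, 3 and 4 (0.0745, 0.0672 and 0.0679) and female LKO replicate 1 (0.0588). Cholangiocyte markers (led by Spp1, mean 68.0 CPM) and adipocyte markers (led by Cidec, mean 24.1 CPM) differed between the controls of both sexes at 1 gene each. Krt19 was higher in female CRE- mice (1.66 in log2, adjusted p = 0.0300) and above the threshold without any 1 of the 8 controls (0.0562 to 0.0989). Cidec, a lipid droplet protein, was at 27.4, 79.8, 33.2 and 45.3 CPM in male CRE- and at 1.64, 1.83, 1.72 and 2.38 CPM in female CRE- replicates 1 to 4 (-4.62 in log2, adjusted p = 0.000167 in edgeR). The other 4 adipocyte markers were above zero in this comparison, 3 of them (Adipoq, Plin1 and Lep) at an unadjusted p under 0.05, with no call and means of at most 1.04 CPM in female CRE- mice.

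Other lists had 0 genes past edgeR's threshold in males and females. T and NK cell markers (led by Nkg7, mean 2.60 CPM) had 0 of 6 at an unadjusted p under 0.05 in either sex, B and plasma cell markers (led by Jchain, mean 32.7 CPM) 0 of 6 in males and 1 in females, and stellate cell and fibroblast markers (led by Dcn, mean 187 CPM) 1 of 6 in males and 0 in females. Over all genes, 1595 of 16742 in males and 3584 in females had an unadjusted p under 0.05 in edgeR. Erythroid markers (led by Hbb-bs, mean 269 CPM) were lower in male LKO mice at an unadjusted p under 0.05 for 4 of 5 genes, beside 793 of 16742 genes. In females 0 of these markers had an unadjusted p under 0.05. Skeletal muscle markers (led by Acta1, mean 5.46 CPM) summed to 1.93, 1.02, 137 and 76.8 CPM in male LKO replicates 1 to 4. They summed to 29.7 CPM in female CRE- replicate 4. In males 6 of 6 were higher in LKO mice at an unadjusted p under 0.05, beside 802 of 16742 genes, and 0 passed. Pancreatic acinar markers (led by Cela1, mean 18.7 CPM) summed to 158 CPM in male CRE- replicate 2 and 617 CPM in female CRE- replicate 2; Amy2a5 was at 0 in all libraries, and 2 of 6 genes were tested. Of the lists, Tf of the hepatocyte markers was not in the table.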
